A study of Mus musculus with 19 samples.

Results

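The genes described here are 9 chaperones and folding factors of the endoplasmic reticulum (ER) that are known targets of the unfolded protein response, together with Xbp1, a transcription factor of that response. They were taken from the liver RNA-seq table by their symbols (Hspa5, Hsp90b1, Hyou1, Dnajb9, Pdia4, Pdia6, Calr, Sdf2l1, Creld2 and Xbp1). All 10 were found among the 24054 genes of the table, and all 10 were tested, as part of the 11580 genes whose mean value reached 1. The question was whether their transcripts differed after loss of RALY, a nuclear RNA-binding protein, in hepatocytes, and how they varied together from mouse to mouse. The 6 livers came from C57BL/6 Raly flox/flox mice on a chow diet, male unless otherwise specified, 4 weeks after injection of an adeno-associated virus. The 3 L-RalyKO mice received AAV8.TBG.Cre, in which the hepatocyte promoter TBG drives the Cre recombinase that removes the floxed exons, and the 3 control mice received AAV8.TBG.GFP. The controls thus carried the floxed alleles and a virus too, although the sample labels call them wild type. The TBG promoter is not meant to act in other cells of the liver, so their Raly is not targeted.

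The lumen of the ER is where secreted and membrane proteins fold, and a hepatocyte, which secretes most plasma proteins, relies on it heavily. When unfolded proteins accumulate there, 3 sensors in the ER membrane respond: ATF6 is cleaved to a transcription factor, IRE1 (gene Ern1) splices the Xbp1 transcript so that it encodes an active factor, and PERK (gene Eif2ak3) slows translation. Spliced XBP1 and cleaved ATF6 then raise transcription of ER chaperones, and they do so partly through the ER stress response element (ERSE), in which a CCAAT box bound by NF-Y and the letters CCACG bound by ATF6 are 9 bases apart. The response also moves with the secretory load and with feeding, so it is measurable in unstressed liver.

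The upstream sequences of the genes are shown first because most of those examined hold the ERSE or a near match to it. The genes were chosen as known targets of these factors, so finding the element near them describes the choice and is not independent of it. A window from 250 bases before to 50 bases after the start site was found in RefSeq (build GRCm38.p6) for 9 of the 10 genes. Hyou1 was not examined for these letters. The exact element, searched on both strands as CCAAT, any 9 bases and CCACG, was in 5 of these 9 windows (Hspa5, Hsp90b1, Calr, Pdia6 and Creld2), and in 0.119% of all 32851 RefSeq windows of this length. Hsp90b1 held 2 copies. The 6 copies are written below in the direction in which they read CCAAT to CCACG, with 5 flanking bases on each side and with both boxes in capitals.

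Hspa5, chr2:34772020-34772048, on the strand of the gene: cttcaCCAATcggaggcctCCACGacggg

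Hsp90b1, chr10:86705633-86705661, on the strand of the gene: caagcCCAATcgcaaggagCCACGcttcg

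Hsp90b1, chr10:86705528-86705556, on the strand opposite to the gene: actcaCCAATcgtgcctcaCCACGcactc

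Calr, chr8:84847070-84847098, on the strand opposite to the gene: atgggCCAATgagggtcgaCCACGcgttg

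Pdia6, chr12:17266486-17266514, on the strand of the gene: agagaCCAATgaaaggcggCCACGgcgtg

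Creld2, chr15:88819515-88819543, on the strand opposite to the gene: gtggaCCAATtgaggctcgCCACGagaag

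The copy nearest to a start site was that of Hspa5, whose first base is at -65, and the farthest was the first copy of Hsp90b1, whose first base is at -212. The 9 bases between the boxes were different in all 6 copies. With 1 mismatch allowed in the boxes, 6 of 9 windows held the element, the additional one being that of Pdia4, against 1.504% of all windows. Each box on its own is frequent: CCAAT was in 8 of the 9 windows and in 37.4% of all windows, and CCACG in 8 of 9 and in 32.8%. Xbp1 was the member with neither box. The letters TGACGTGG, a site bound by ATF6 and XBP1, were in none of the 9 windows and in 0.676% of all, and ATTGG, any 1 base and CCACG, known as ERSE-II, was in none of the 9 and in 0.0365% of all. These matches overlap, since the boxes are parts of the element, and they describe letters only. The upstream 250 bases of Hspa5 (chr2:34771840-34772089, + strand) hold 4 CCAAT boxes counted on both strands, of which 1 is part of the exact element (in capitals):

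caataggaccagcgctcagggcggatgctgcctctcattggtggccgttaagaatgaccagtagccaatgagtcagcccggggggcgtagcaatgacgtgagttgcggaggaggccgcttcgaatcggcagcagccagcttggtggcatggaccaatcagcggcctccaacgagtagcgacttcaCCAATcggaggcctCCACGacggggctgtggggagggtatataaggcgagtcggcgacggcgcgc

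The deposited values are read counts per gene scaled to the library size and are called normalised read counts here. They are not divided by gene length. The libraries held between 28302983 and 38052705 reads, and every member had at least 459 reads in each library, so counting error was small. Raly itself, the check of the genotype, had 6.34, 6.61 and 7.39 normalised read counts in L-RalyKO mice 1, 2 and 3 and 50.1, 48.6 and 46.8 in control mice 1, 2 and 3 (log2 fold change -2.67, adjusted p = 6.92e-07), so mouse 2 had lost as much Raly transcript as the other L-RalyKO mice. The first principal component of all tested genes (35.3% of the variance) placed the L-RalyKO mice at 0.43, 0.43 and 0.35 and the controls between -0.54 and -0.33, and mouse 2 did not stand apart on it. In pairwise comparisons of reads over all genes, the chi-square per degree of freedom was 23.3 and 27.4 for mouse 2 against L-RalyKO mice 1 and 3, 12.6 between mice 1 and 3, and between 18.2 and 84.3 among controls. Hepatocyte markers summed to between 81175 and 90877 in all 6 livers, as the tissue label has it. Nothing in the labels says how the livers were processed relative to each other, so p values measure the spread between these mice.

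Hspa5 encodes BiP, the HSP70 of the ER and the partner from which the 3 sensors are released when unfolded proteins appear. Its normalised read counts were 920.2, 498 and 893 in L-RalyKO mice 1, 2 and 3, and 657, 636 and 594 in the controls. L-RalyKO mice 1 and 3 were thus above every control, and they were 46.3% and 41.9% above the control mean. Mouse 2 was below every control, at 0.791 of that mean. The means were 770.1 ± 236 (SD, n = 3) and 629 ± 32.1, and the log2 fold change of 0.24 (95% interval -0.22 to 0.70, adjusted p = 0.535 by limma) did not pass the test.

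Hyou1, another HSP70-type protein of the ER lumen that serves BiP as a nucleotide exchange factor, showed the same split. It had 242, 126 and 215 in the L-RalyKO mice and 157, 166 and 157 in the controls. Mice 1 and 3 were 51.3% and 34.5% above the control mean and mouse 2 was at 0.785 of it, while the 3 controls were within a range of 157 to 166. Its log2 fold change was 0.22 (-0.24 to 0.69, adjusted p = 0.561).

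Dnajb9 (ERdj4) is a J-domain co-chaperone of BiP and a strong target of XBP1. It had 103, 56.4 and 101 in the L-RalyKO mice and 67.3, 62.5 and 77.6 in the controls, and again mouse 2 was below and the other L-RalyKO mice were above every control. The log2 fold change was 0.28 (-0.19 to 0.75, adjusted p = 0.472).

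Creld2, a secreted ER-resident protein with a disulphide isomerase activity that is raised readily by ER stress, had the widest spread of the 10 genes on the log2 scale. Its values were 54.2, 20.5 and 45.5 in the L-RalyKO mice and 24.2, 25.6 and 20.3 in the controls. Mouse 1 was 132% and mouse 3 was 94.8% above the control mean, and mouse 2 fell within the range of the controls. The log2 fold change was 0.65 (-0.02 to 1.33), with an adjusted p of 0.236.

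The 2 disulphide isomerases showed smaller differences. Pdia4 (ERp72) had 201, 156 and 184 in the L-RalyKO mice and 172, 177 and 166 in the controls, which is the arrangement of Hspa5 at a smaller size (log2 fold change 0.06, -0.13 to 0.26, adjusted p = 0.722). Pdia6 (P5), which also acts on the activated sensors, had 239, 219 and 232 against 213, 226 and 218, and mouse 2 fell within the controls (0.07, -0.05 to 0.18, adjusted p = 0.484).

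Hsp90b1 and Sdf2l1 were the only members of the 10 whose groups did not overlap, both being higher in every L-RalyKO mouse than in every control; 14.4% of tested genes were arranged in this way. Hsp90b1 encodes GRP94, the HSP90 of the ER, and had 921, 805 and 931 against 755, 802 and 797. Mouse 2 exceeded the highest control by only a few counts. Sdf2l1, a partner of ER J-domain proteins and of BiP, had 22.5, 17.1 and 18.998 against 15.1, 16.1 and 15.4. Their log2 fold changes were 0.17 (0.02 to 0.33, adjusted p = 0.175) and 0.30 (0.09 to 0.52, adjusted p = 0.0964), and neither passed the test.

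Calr and Xbp1 were arranged differently from the others. Calr, the lectin chaperone calreticulin, which binds calcium and newly made glycoproteins, had 652, 620.2 and 612 in the L-RalyKO mice and 631, 684 and 669 in the controls, the 1 member with a lower mean in L-RalyKO (log2 fold change -0.07, -0.20 to 0.05, adjusted p = 0.466). Xbp1 had 188, 199 and 174 against 168, 159 and 191, and here mouse 2 had the highest value of all 6 mice (0.11, -0.06 to 0.29, adjusted p = 0.419). The Xbp1 value counts all transcripts of the gene, so the spliced form that encodes the active factor cannot be told apart from the unspliced form. In bulk liver, moreover, fewer cells of a type and less RNA per cell cannot be told apart.

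**Figure D1:**
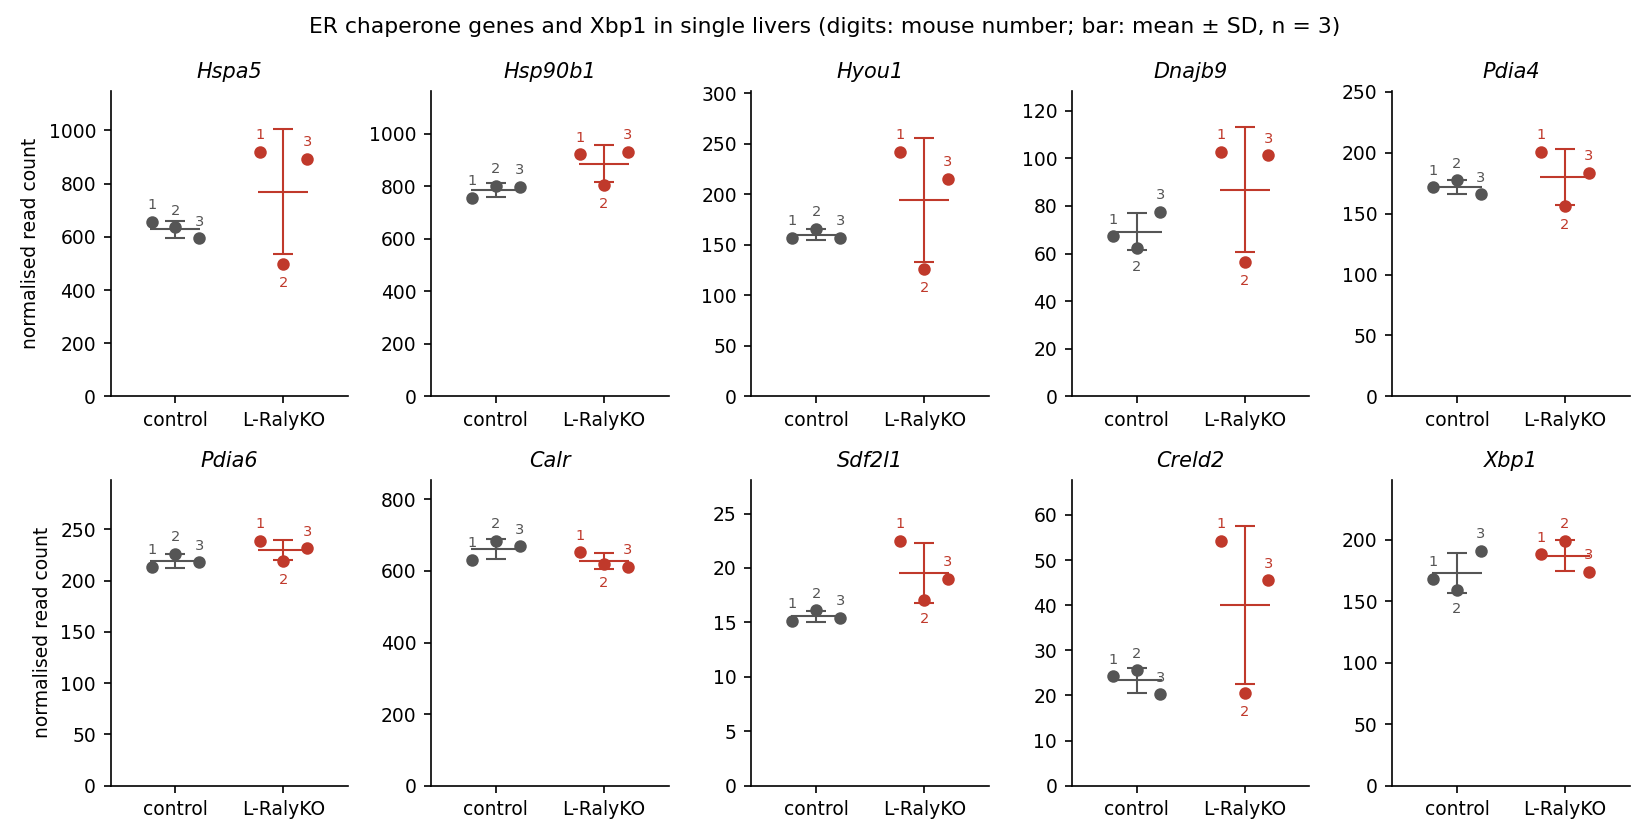
Normalised read counts (y axes, starting at 0) of the 10 genes in single livers of control (grey) and L-RalyKO (red) mice; digits are mouse numbers, the wide bar is the mean and the error bar the SD of 3 mice. L-RalyKO mice 1 and 3 lie above all controls in 8 of the 10 genes, while mouse 2 lies among or below the controls in Hspa5, Hyou1, Dnajb9, Pdia4, Pdia6, Creld2 and Calr.

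Over the 10 genes, 0 passed an adjusted p of 0.05 in limma, against 6.55% of tested genes, and 0 passed in edgeR (6.76% of tested genes) or in DESeq2 (9.36%). At an unadjusted p under 0.05 there were 2 (Hsp90b1 and Sdf2l1), against 22.7% of tested genes. The log2 fold change was above 0 for 9 of the 10, with a median of 0.20, and the median over all tested genes was 0.00.

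The mouse by mouse view separated the L-RalyKO animals. Mice 1 and 3 were both above every control in 8 of the 10 genes, against 19.4% of tested genes. Mouse 2 was the lowest L-RalyKO mouse in 8 of 10, against 31.6% of tested genes, and the values fell in the order mouse 1, mouse 3, mouse 2 in 7 of 10, against 15.5%. For 4 genes (Hspa5, Hyou1, Dnajb9 and Pdia4) mice 1 and 3 were above every control and mouse 2 was below every control. This arrangement was found in 156 tested genes (1.35%). These arrangements were set after the values of the 10 genes were seen, and the genes do not vary independently of each other. The counts and the shares beside them are therefore a description.

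**Figure D2:**
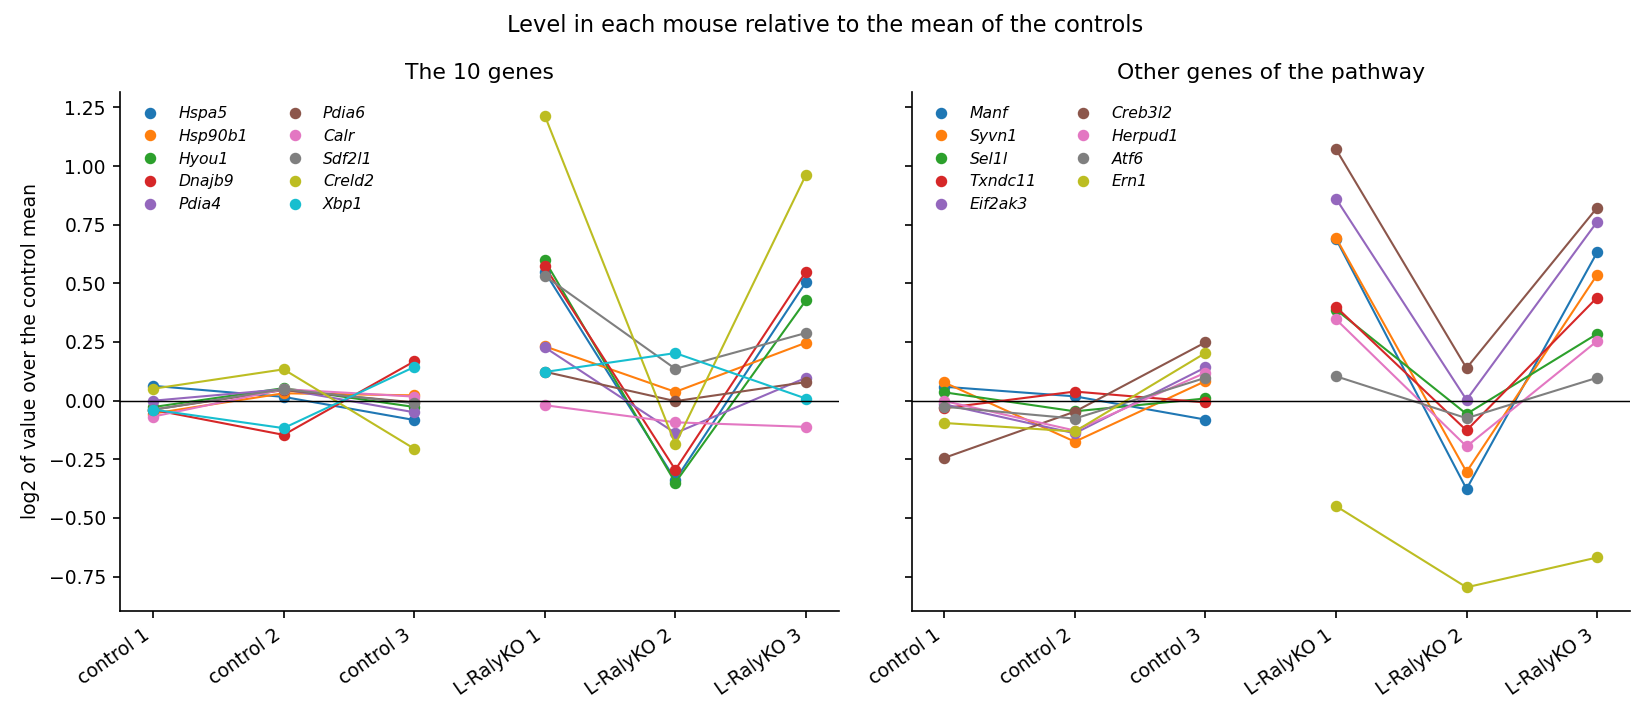
Log2 of the value in each mouse over the mean of the controls (y axis) for the 10 genes (left) and for 9 other genes of the pathway picked after their values were seen (right); lines join the points of 1 gene within a group and carry no order. In Hspa5, Hyou1, Dnajb9, Creld2, Manf and Syvn1, L-RalyKO mice 1 and 3 lie above 0 and mouse 2 below it, whereas Ern1 lies below 0 in all 3 L-RalyKO mice.

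The spread between the L-RalyKO mice was correspondingly wide. The SD of log2(value + 1) among the L-RalyKO mice was 0.50 for Hspa5, 0.50 for Hyou1, 0.49 for Dnajb9 and 0.72 for Creld2, larger than that of between 99.3% and 99.8% of tested genes. Among controls the same genes had SDs of 0.07, 0.05, 0.16 and 0.17. The median over the 10 genes was 0.19 in L-RalyKO and 0.05 in controls, and over all tested genes it was 0.08 and 0.09. Calr, Pdia6 and Xbp1 had SDs among the L-RalyKO mice of 0.05, 0.06 and 0.10, larger than that of 25.1%, 36.3% and 59.4% of tested genes.

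The comparison was repeated with each mouse left out in turn. Without L-RalyKO mouse 2, 4 of the 10 genes passed the test, all higher, against 3.77% of tested genes in either direction and 1.90% higher. They were Hspa5 (log2 fold change 0.53, 95% interval 0.38 to 0.68, adjusted p = 0.00888), Hyou1 (0.51, 0.36 to 0.66, adjusted p = 0.0106), Dnajb9 (0.56, 0.35 to 0.77, adjusted p = 0.0203) and Creld2 (1.06, 0.80 to 1.33, adjusted p = 0.00587). Leaving out any of the other 5 mice gave 0 of 10. Over all alternatives the adjusted p ranged up to 0.877 for Hspa5, 0.940 for Hyou1, 0.804 for Dnajb9 and 0.525 for Creld2. Sdf2l1 (0.39, adjusted p = 0.0563), Hsp90b1 (0.24, adjusted p = 0.0761), Pdia4 (0.16, adjusted p = 0.208), Pdia6 (0.10, adjusted p = 0.357), Xbp1 (0.07, adjusted p = 0.708) and Calr (-0.06, adjusted p = 0.634) did not pass without mouse 2 either. Mouse 2 was singled out by its values in these same genes. The p values, intervals and counts without it, here and below, are therefore conditioned on that choice and are a description. Why mouse 2 differed was not tested.

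**Figure D3:**
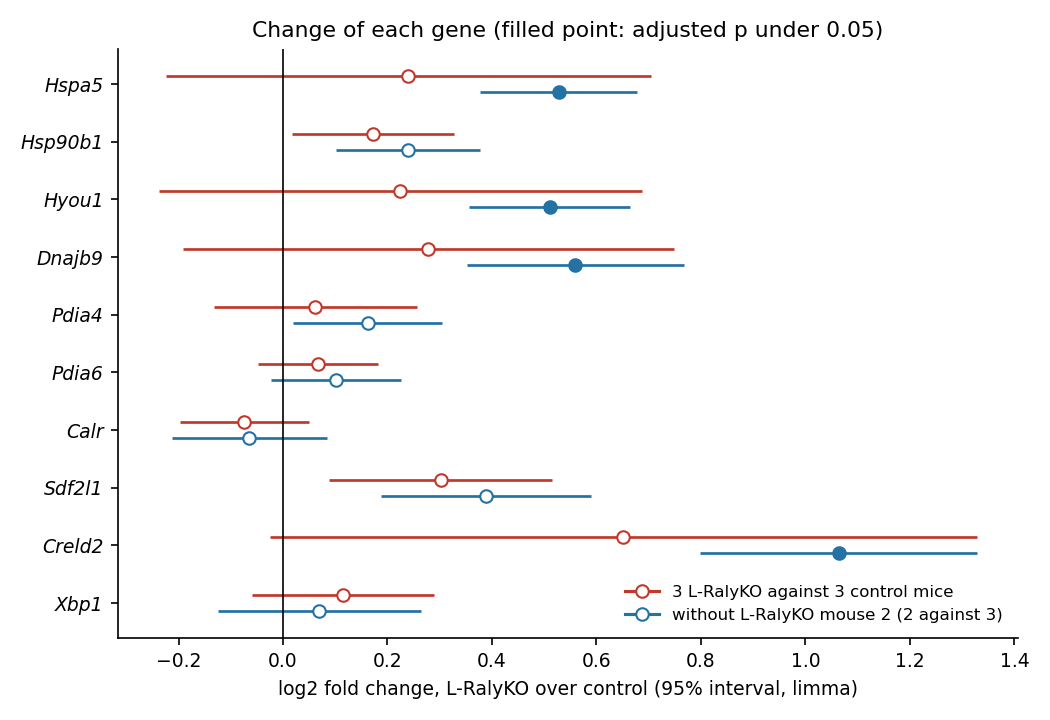
Log2 fold change of L-RalyKO over control from limma (x axis) with its 95% interval for each of the 10 genes, with all 6 mice (red) and without L-RalyKO mouse 2 (blue); filled points have an adjusted p under 0.05. With all mice no point is filled, and without mouse 2 those of Hspa5, Hyou1, Dnajb9 and Creld2 are.

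The same genes varied together over the 6 mice. Pearson's r of log2(value + 1) with Hspa5 was 0.98 for Hyou1, 0.95 for Creld2, 0.93 for Pdia4 and 0.92 for Dnajb9. It was 0.81 for Hsp90b1, 0.80 for Pdia6 and 0.74 for Sdf2l1, and it was -0.13 for Calr and -0.24 for Xbp1. Spearman's rho was 0.83, 0.89, 0.94 and 0.83 for the first 4 of these genes, 0.43, 0.60 and 0.49 for the next 3, and -0.14 and -0.43 for Calr and Xbp1. Of the 9 genes, 4 had an r of at least 0.9, against 0.725% of the other tested genes, and the median r was 0.81 against -0.02 over all other tested genes.

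By an exact two-sided permutation test over the 720 orders of the mice, r had p = 0.00556 for Hyou1, Creld2 and Pdia4 and 0.0153 for Dnajb9, and p between 0.0667 and 0.768 for the other 5 genes. The permutation p of rho was 0.0583 for Hyou1 and Dnajb9, 0.0333 for Creld2, 0.0167 for Pdia4 and between 0.242 and 0.803 for the others. Thus 4 of 9 genes had a p of r under 0.05, against 3.70% of the other tested genes. The smallest p that 720 orders can give is 0.00139, and after adjustment over the 11579 genes compared with Hspa5 all 9 genes had an adjusted p of 0.999 for r and of 1 for rho. No gene of the table passed that adjustment.

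The high correlations with Hspa5 remained when the group means were removed. The deviations left were mostly those of the L-RalyKO mice. The SD of log2(value + 1) of Hspa5 was 0.50 among them and 0.07 among controls. An r from deviations thus mainly describes the split among the L-RalyKO mice. Computed from the deviations of each mouse from its group mean, r with Hspa5 was 0.98 for Hyou1 and for Creld2, 0.93 for Pdia4, 0.91 for Dnajb9 and 0.87 for Hsp90b1, with a median of 0.87 over the 9 genes, and 4 of 9 were at least 0.9, against 1.99% of the other tested genes. When both mice farthest from the median of Hspa5 were left out (L-RalyKO mice 1 and 3), r over the remaining 4 mice was 0.93 for Hyou1 and for Pdia4, 0.74 for Creld2 and 0.52 for Dnajb9, but -0.62 for Hsp90b1, -0.03 for Pdia6 and -0.85 for Sdf2l1. The median over the 9 genes was 0.50. Mice 1 and 3 had the highest Hspa5 values, so leaving out both narrows its range and leaves 4 points. With only L-RalyKO mouse 1 or only mouse 3 left out, r was 0.71 and 0.72 for Hsp90b1. It was 0.65 and 0.77 for Pdia6, and 0.53 and 0.73 for Sdf2l1.

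Between all members there were 45 pairs, with a median r of 0.78 and 11 negative values. Hyou1, Creld2, Pdia4 and Dnajb9 were picked for an r of at least 0.9 with Hspa5. The 10 pairs within these genes and Hspa5 had r between 0.80 and 0.98. Xbp1 had r between -0.29 and 0.29 with the other members and Calr between -0.27 and 0.15. From the deviations these 2 genes parted: Calr was positive with all 9 others (0.08 to 0.72, highest with Pdia6), and Xbp1 was negative with 8 of 9 (down to -0.59). A single component held 70.4% of the variance of the 10 genes, with L-RalyKO mice 1, 2 and 3 at 0.67, -0.42 and 0.45 and the controls between -0.29 and -0.13. This is unlike the component of all tested genes, on which the 3 L-RalyKO mice lay together. The exact ERSE did not sort the members by this behaviour: Creld2, Hsp90b1 and Pdia6 carry it and had r with Hspa5 of 0.95, 0.81 and 0.80, Calr carries it and had an r of -0.13, and Dnajb9 does not and had an r of 0.92.

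**Figure D4:**
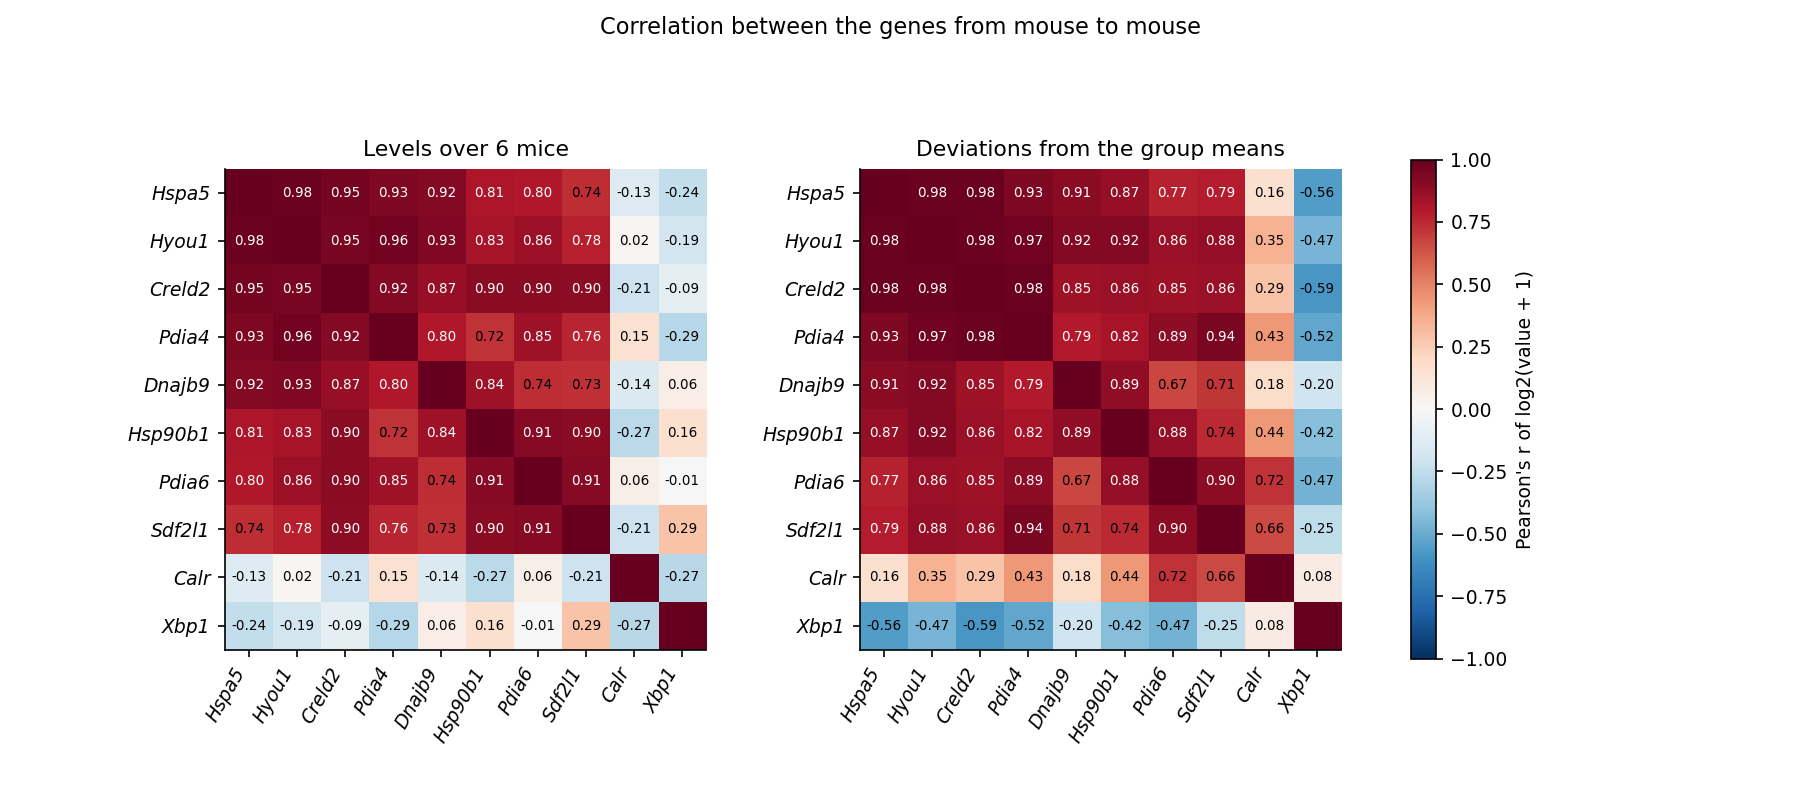
Pearson's r of log2(value + 1) between the 10 genes (rows and columns) over 6 mice, from the levels (left) and from deviations from the group means (right); colour and printed number give r. A block of 8 genes from Hspa5 to Sdf2l1 has r of at least 0.72 in the left panel, with Calr and Xbp1 outside it, and in the right panel Calr is positive with every other gene while Xbp1 is negative with all but Calr.

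Levels between genes were compared per kilobase of annotated exon. In controls Calr was at 229.6 ± 9.55 normalised read counts per kilobase (SD, n = 3), Hsp90b1 at 195 ± 6.35 and Hspa5 at 179 ± 9.14. A lower tier held Pdia4 (69.2 ± 2.36), Pdia6 (58.6 ± 1.72) and Xbp1 (53.2 ± 5.003). Dnajb9 (37.1 ± 4.15), Hyou1 (22.1 ± 0.720), Creld2 (17.1 ± 2.03) and Sdf2l1 (14.04 ± 0.441) were the lowest. Among neighbours in this order only Pdia6 and Xbp1 had means ± SD that overlapped. In L-RalyKO the 3 most abundant chaperones could not be ordered, at 219 ± 67.3 for Hspa5, 219.7 ± 17.4 for Hsp90b1 and 218 ± 7.42 for Calr.

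On the mouse genome build NCBIM37 (mm9), the GENCODE vM1 annotation places the genes on 9 chromosomes. Hspa5 (ENSMUSG00000026864.7) lies on chromosome 2 from 34627490 to 34632051 (+ strand), Hyou1 (ENSMUSG00000032115.7) on chromosome 9 from 44187573 to 44200452 (+) and Dnajb9 (ENSMUSG00000014905.3) on chromosome 12 from 45306884 to 45311055 (-). Creld2 (ENSMUSG00000023272.3) lies on chromosome 15 from 88650076 to 88657111 (+) and Pdia4 (ENSMUSG00000025823.8) on chromosome 6 from 47746141 to 47763511 (-). These 5 genes, Hspa5 and the 4 members with an r of at least 0.9 with it, are thus on 5 different chromosomes. Pdia6 shares chromosome 12 with Dnajb9 (17273351 to 17291576) and overlaps Atp6v1c2 on the opposite strand, and Hsp90b1 overlaps the noncoding 1810014B01Rik on the opposite strand. The library kit was stranded, but whether the counting used the strand is not given in the sources used here, so the values of Pdia6 and Hsp90b1 may hold reads of these neighbours. None of the 10 genes shared a word of 50 bases with a protein-coding transcript of another gene read in the same direction. Noncoding transcripts were not searched, among them Gm15344, which overlaps Hsp90b1 on its own strand.

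Of the 12 upstream sensors and transcription factors tested, 1 changed in limma, a share close to the 6.55% of all tested genes, and 3 passed in DESeq2, against 9.36%. Ern1, which encodes IRE1, fell, with 41.0, 32.3 and 35.2 in the L-RalyKO mice and 52.4, 51.1 and 64.5 in the controls (log2 fold change -0.62, adjusted p = 0.0137). The groups did not overlap, mouse 2 lay with the other L-RalyKO mice, and its r with Hspa5 was -0.17. Creb3l2, an ER-anchored factor of the ATF6 kind, had 20.3, 10.6 and 17.1 against 8.17, 9.36 and 11.5 (0.64, adjusted p = 0.107). Eif2ak3, named after its values were seen, had 22.7, 12.5 and 21.2 against 12.3, 11.3 and 13.8 (0.51, adjusted p = 0.151). In both, mice 1 and 3 were above every control and mouse 2 was within the controls. Without mouse 2 their log2 fold changes were 0.89 and 0.77, with adjusted p of 0.0189 (0.00451 to 0.279 over all alternatives) and 0.00866 (0.00866 to 0.373). Atf6 was arranged in the same way at a much smaller size, with 99.53, 87.93 and 99.09 against 90.97, 87.84 and 99.07 (0.04, adjusted p = 0.755, r with Hspa5 0.69), while the 3 NF-Y subunits had log2 fold changes between -0.10 and 0.06.

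Of the other folding enzymes and co-chaperones of the ER, 23 were tested and 2 rose, a share close to the 6.55% of all tested genes. The log2 fold change was above 0 for 21 of the 23, with a median of 0.09, against 5925 of 11580 and a median of 0.00 over all tested genes. Prdx4, an ER peroxiredoxin that feeds oxidation into disulphide bonds, had 59.9, 54.7 and 59.5 against 43.1, 48.9 and 44.3 (0.35, adjusted p = 0.0173). Pdia5, another disulphide isomerase, had 48.6, 54.3 and 56.2 against 42.5, 45.7 and 42.5 (0.28, adjusted p = 0.0437). In neither was mouse 2 apart from mice 1 and 3 in the way of Hspa5, and their r with Hspa5 was 0.56 and 0.22. Prdx4 did not pass when L-RalyKO mouse 1, L-RalyKO mouse 3 or control mouse 1 was left out (adjusted p up to 0.0726), and Pdia5 passed in only 1 of the 6 omissions (adjusted p up to 0.129).

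Manf, a BiP-binding secreted factor that was named after its values were seen, was almost a copy of Hspa5. It had 80.2, 38.3 and 77.0 in the L-RalyKO mice and 51.8, 50.4 and 47.01 in the controls, with an r of 0.999 with Hspa5. Txndc11, a thioredoxin-domain protein, had 37.8, 26.2 and 38.8 against 28.0, 29.4 and 28.5 (r 0.96). Without mouse 2, 4 of the 23 genes of this list passed, all higher, against 1.90% of all tested genes that were higher: Manf (0.65, adjusted p = 0.00402), Txndc11 (0.41, adjusted p = 0.0154), Ero1lb (0.44, adjusted p = 0.0110) and Prdx4 (0.39, adjusted p = 0.0276). The largest adjusted p of these over all alternatives were 0.833, 0.637, 0.219 and 0.0726.

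ER-associated degradation, which returns misfolded proteins to the cytosol, had 16 genes tested, of which 0 passed in limma, 0 in edgeR and 2 in DESeq2, against 6.55%, 6.76% and 9.36% of all tested genes. At an unadjusted p under 0.05 there were 3, against 22.7%. Edem2, a mannosidase-like factor that marks glycoproteins for disposal, had a change of 0.27 on the log2 scale (adjusted p = 0.0664), and Derl2, a membrane protein of the export channel, had one of -0.20 (adjusted p = 0.0669), with groups that did not overlap in either. The ligase subunits Syvn1 and Sel1l, named after their values were seen, followed Hspa5 instead. Syvn1 had 124, 62.1 and 111 against 80.9, 67.9 and 81.2 (r 0.95), and Sel1l had 243, 179 and 227 against 191, 180.3 and 187 (r 0.94). Without mouse 2 both passed, at 0.61 (adjusted p = 0.0167, 0.0167 to 0.821 over all alternatives) and 0.33 (adjusted p = 0.0251, 0.0251 to 0.598).

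Of the 16 genes of protein translocation and signal peptidase, 0 passed in limma, edgeR or DESeq2 (6.55%, 6.76% and 9.36% of all tested genes), and 3 had an unadjusted p under 0.05 (22.7% of all). Spcs3, a signal peptidase subunit, differed by 0.18 on the log2 scale (adjusted p = 0.0787), and Srpr, the receptor of the signal recognition particle, one of 0.12 (adjusted p = 0.176). Over these 4 lists together 67 genes were tested, and 54 had a log2 fold change above 0 (5925 of 11580 over all tested genes). In limma 3 passed, a share below the 6.55% of all tested genes. In edgeR 3 passed (6.76% of all tested genes), and in DESeq2 8 passed, a share above the 9.36% of all tested genes. Without mouse 2, 9 passed in limma, 8 of them higher, against 3.77% of all tested genes in either direction and 1.90% higher. With all 6 mice, 6 of the 67 had an r of at least 0.9 with Hspa5, against 0.725% of tested genes. These lists and the members were chosen with results of these data known, and the counts are a description.

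**Figure D5:**
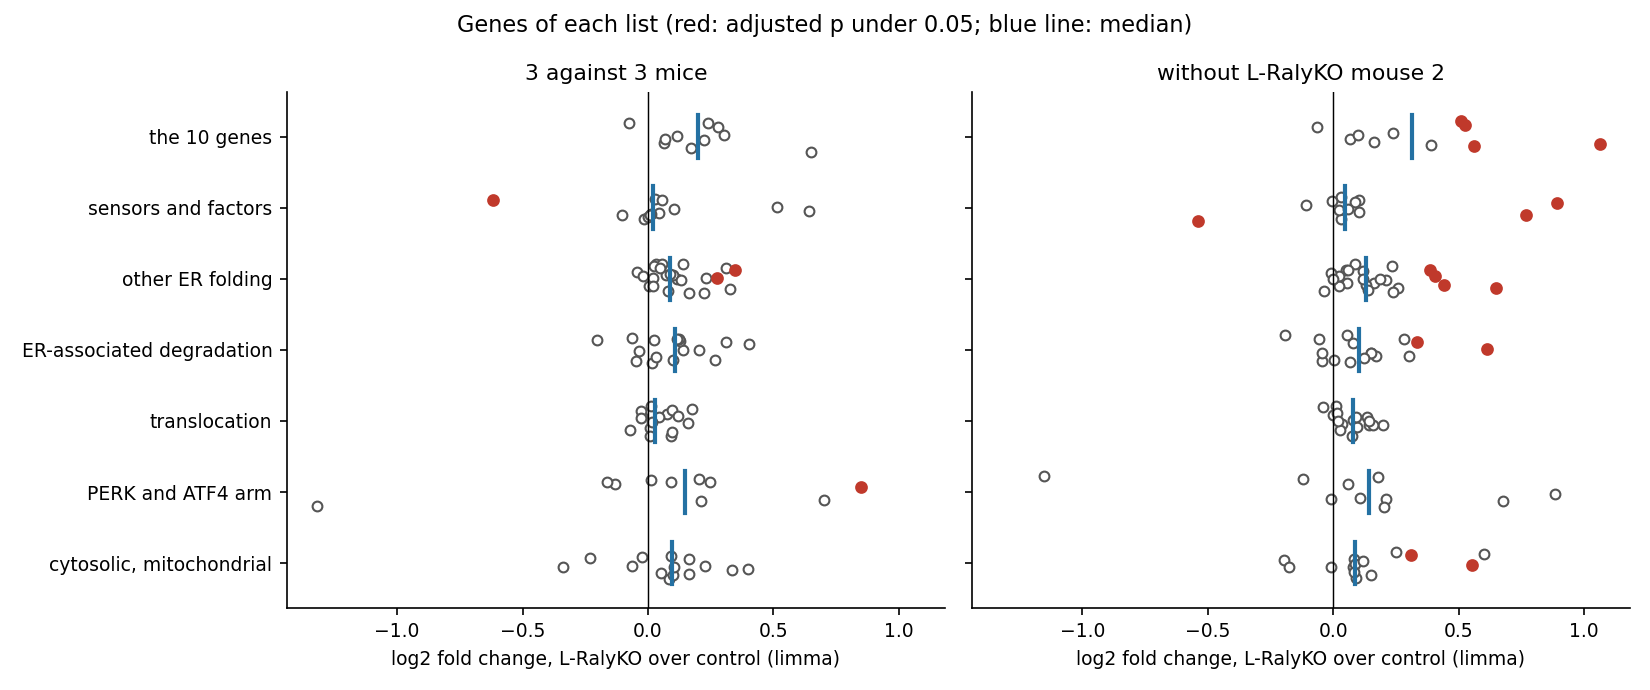
Log2 fold change of L-RalyKO over control (x axis) of every tested gene in the 10 genes and in 6 related lists (rows), with all mice (left) and without L-RalyKO mouse 2 (right); red points have an adjusted p under 0.05 in limma and blue lines are medians. With all mice, 4 points are red (Ern1, Prdx4, Pdia5 and Asns), and without mouse 2 the rows of the 10 genes and of other ER folding each have 4.

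The PERK and ATF4 arm serves amino acid supply under stress. Of 13 genes, 10 were tested, with a median log2 fold change of 0.15, and 6 had an unadjusted p under 0.05, against 22.7% of tested genes. After adjustment 1 passed in limma, against 6.55% of all tested genes, and it was higher: Asns, asparagine synthetase, at 2.04, 1.54 and 1.45 against 0.328, 0.947 and 0.243 (log2 fold change 0.85, adjusted p = 0.0324), a gene of low level. Without mouse 2 Asns was at 0.89 with an adjusted p of 0.0769 (0.00132 to 0.112 over all alternatives), and it passed in 1 of the 6 omissions, that of control mouse 2. Ddit4, a stress-induced inhibitor of mTORC1, had 6.57, 6.82 and 15.2 against 19.7, 16.5 and 40.2 (-1.32, adjusted p = 0.0661, 0.00198 to 0.249 over all alternatives). The other 4 with an unadjusted p under 0.05 had higher means in L-RalyKO, and they are named with their values known. The transcription factor gene Atf4 had 69.7, 71.9 and 67.2 against 55.7, 65.5 and 60.1 (0.20, adjusted p = 0.105), and Ddit3, which encodes CHOP, had 4.71, 5.08 and 4.605 against 4.56, 3.79 and 3.38 (0.25, adjusted p = 0.213). The groups did not overlap in either gene, and mouse 2 had the highest value in both. Chac1 differed by 0.70 (adjusted p = 0.217, 0.00700 to 0.565 over all alternatives) and Sesn2 by 0.21 (adjusted p = 0.208). The median r of this list with Hspa5 was 0.15, below the 0.81 of the members.

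Genes that respond to feeding and fasting were followed because the ER response is known to move with meals. Against 6.55% of all tested genes, 2 of 8 fasting-induced and 4 of 5 tested feeding-induced genes passed. The fasting-induced genes that passed were Pck1, which rose (log2 fold change 0.78, adjusted p = 0.00312) and G6pc, which fell (-0.61, adjusted p = 0.0125). The 4 feeding-induced genes fell: Acly (-0.56, adjusted p = 0.00365), Elovl6 (-0.62, adjusted p = 0.00527), Srebf1 (-0.65, adjusted p = 0.0173) and Fasn (-0.50, adjusted p = 0.0445). Without L-RalyKO mouse 1 or control mouse 1, 2 of the feeding-induced genes passed, and without mouse 2 there were 3. Several of these are also targets of SREBP factors. Mouse 2 was not apart in Pck1, which had 5401, 5327 and 5616 in the L-RalyKO mice. In Srebf1 mouse 2 had the highest value of the L-RalyKO mice (191, 245 and 166, against 323, 299 and 312), and its r with Hspa5 was -0.71. For its qPCR of chow-fed livers the study mentions fasting mice, with a trend to lower Srebp1c, a form of Srebf1, that was not significant. Whether the RNA-seq livers came from fasting mice is not stated in the sources used here. The part of feeding state in the values of the chaperones was not tested.

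Markers of other cells of the liver were checked in the same mice. The sum of 7 Kupffer cell and macrophage markers was 145, 113 and 137 in the L-RalyKO mice and 112, 169 and 134 in the controls. The sum of 5 endothelial markers was 170.2, 134 and 148 against 154, 151 and 161, and that of 4 cholangiocyte markers was 8.35, 6.85 and 7.97 against 5.93, 4.70 and 4.62. Mouse 2 was thus the lowest L-RalyKO mouse in these 3 sums. The sum of 5 stellate cell and fibroblast markers was between 183 and 236. Of these lists and the hepatocyte list, 0 genes passed in limma or edgeR, against 6.55% and 6.76% of all tested genes. In DESeq2 1 hepatocyte marker of 6 and 1 cholangiocyte marker of 2 tested passed (9.36% of all tested genes), and 2 markers had an unadjusted p under 0.05 in limma (22.7% of all). Of the plasma cell markers only Sdc1 was tested (between 165 and 192), which hepatocytes express too. The 6 pancreatic acinar markers, a possible source of chaperone transcripts, summed to between 0.0270 and 0.320 in each library, with 3 of them at 0 in all 6. The part of the Kupffer cells, endothelial cells and cholangiocytes in the result was not tested.

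Of the 37 genes whose RefSeq window holds the exact ERSE, 16 were tested, and 11 of these are not among the 10 genes. Their median r with Hspa5 was 0.34 and their median log2 fold change was 0.02. Syvn1 (r 0.95) and Alg12, a mannosyltransferase of the ER (r 0.79), had L-RalyKO mice 1 and 3 above and mouse 2 below every control. Dnajc3 and Canx, an ER co-chaperone and the membrane lectin chaperone calnexin, had r of 0.71 and 0.57 and log2 fold changes of 0.13 and 0.12 (adjusted p = 0.261 and 0.345). Acnat2 was the 1 gene of the 11 that passed, a share close to the 6.55% of all tested genes, and it was lower. Without mouse 2, 2 of the 11 passed (3.77% of all tested genes), Syvn1 higher and Acnat2 lower. These genes were found by sequence, but Alg12, Acnat2, Dnajc3 and Canx are named here with their values known.

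Among 7413 genes whose mean value reached 10, those most like the mean standardised profile of the 10 genes over the 6 mice were Tspan7 (r 0.99), Snx5 (0.98), Mup7 (0.97), Pafah1b1 (0.97), Pdia3 (0.97), Uggt1 (0.96), Prkcsh (0.96), Sort1 (0.96), Brox (0.95) and Stx5a (0.95). An r of at least 0.9 was found for 56 genes (0.755%). Pdia3, Uggt1 and Prkcsh act in the calnexin cycle of glycoprotein folding, to which calreticulin belongs too. Pdia3 had 438, 412 and 430.4 in the L-RalyKO mice and 413, 424 and 416 in the controls, so that its high r came with small differences in level. Uggt1, the folding sensor of that cycle, had 109, 93.1 and 107 against 91.1, 93.4 and 95.3. Its values in mice 1 and 3 were above every control, and that of mouse 2 was among the controls. Mup7, a major urinary protein gene, moved most, with 6980.4, 2299 and 5877 against 2979, 3495 and 3646. Its family holds near-identical copies among which reads can be split, so this value is uncertain. The adjusted p of these 10 genes in limma was between 0.244 and 0.800.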

How the data were processed

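The report rests on liver RNA-seq of 3 L-RalyKO and 3 control mice, and other assays of the study were not used here. The study states a larger number of mice per group for this assay than the 3 analysed here. The authors deposited, as a normalized signal, read counts divided by the product of library total and scaling factor (CPM). The methods name TopHat 2.0.2, mm9 and FPKM values from Cufflinks 2.0.2 and Cuffdiff, and how the deposited values were made is not given in the sources used here. In each library 100% of values came out as whole reads (tolerance 0.001 reads), and the scaling factors equalled TMM factors of edgeR, so reads could be recovered. Column names give the virus and the number of the mouse. A value of 3 reads is between 0.0789 and 0.105.

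Groups were compared with limma 3.58.1 (R 4.3.3, intensity trend) on log2(value + 1) among 11580 genes with a mean of at least 1, with Benjamini-Hochberg adjustment over all of them; fold changes are on that scale and understate those of low genes. Exact permutation tests of 3 against 3 cannot give p under 0.1. Alternatives were edgeR 4.0.16 (quasi-likelihood) and DESeq2 1.42.0 on recovered reads, a pseudocount of 0.1, total count scaling, no filter, no trend, a replicate block and leaving out each mouse. The tests were first run on simulated data. Genes named by rule were the 10 members, up to 4 genes per list by p (at least 2), and the 10 genes most like the members. Other genes, among them Txndc11, Ero1lb, Atf6 and Dnaja1, were named outside this rule with their values known. The members and lists were chosen with earlier results of these data known.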

Additional observations from a re-analysis of the deposited data

How the results depend on the processing

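The number of mice sets the limits here: 3 per group, and leaving out L-RalyKO mouse 2 changes the call of 4 of the 10 members. Of 130 results for single members (10 genes under 13 alternatives), 125 kept their direction and their side of the threshold. The 4 that newly passed were Hspa5, Hyou1, Dnajb9 and Creld2 without L-RalyKO mouse 2, and the log2 fold change of Pdia4 turned to -0.020 without L-RalyKO mouse 1 (-0.02 to 0.16 with each mouse left out). The number of members that passed ranged from 0 to 4 with each mouse left out and was 0 under the other 7 alternatives. The median log2 fold change of the members ranged from 0.10 (without L-RalyKO mouse 1) to 0.31 (without mouse 2), and the members without overlap numbered 2 to 8, with 8 only without L-RalyKO mouse 2, where 2 mice face 3 and 19.4% of all tested genes are higher in both. The median r with Hspa5 ranged from 0.71 without L-RalyKO mouse 1 to 0.93 without control mouse 1.

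Of all tested genes 758 passed, with 484 among all genes with at least 1 read, and 332 to 813 with a mouse left out (332 without L-RalyKO mouse 1, 437 without L-RalyKO mouse 2, 491 without L-RalyKO mouse 3 and 369 without control mouse 1). The 8 other lists held 10 genes that passed, 16 in DESeq2 and 5 to 16 with a mouse left out (16 without L-RalyKO mouse 2, 6 without L-RalyKO mouse 1, 5 without control mouse 1). Same-numbered mice are different animals, and their deviations from the group means correlated at 0.066, -0.024 and 0.020, so the numbers do not pair them; with a replicate block 704 genes, 0 members and 11 genes of the lists passed, and it changed no call of a member.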

Other observations

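Chaperones outside the ER were followed as a second group, to see whether the mouse by mouse arrangement extended to the cytosol and mitochondria. Of 14 tested genes 0 passed in limma, edgeR or DESeq2 (6.55%, 6.76% and 9.36% of all tested genes), 3 had an unadjusted p under 0.05 (22.7% of all), and the median log2 fold change was 0.10. Hspd1, the mitochondrial HSP60, had 551, 579 and 584 in the L-RalyKO mice and 496, 523 and 512 in the controls (log2 fold change 0.16, adjusted p = 0.0907), and mouse 2 lay between the other L-RalyKO mice. Bag3, a cytosolic co-chaperone of HSP70, had 36.6, 33.2 and 37.9 against 46.0, 39.3 and 41.5 (-0.23, adjusted p = 0.106). The median r of the list with Hspa5 was 0.50, and 2 of the 14 genes had an r of at least 0.9, against 0.725% of tested genes. These were Hsph1 and Hspa8, named with their values known. Hsph1, a cytosolic exchange factor of HSP70, had 63.7, 43.1 and 74.2 against 50.5, 47.3 and 42.0 (r 0.93, log2 fold change 0.33, adjusted p = 0.287), and Hspa8, the constitutive HSP70, had 1211, 1023 and 1255 against 1097, 1024 and 988 (r 0.91, log2 fold change 0.16, adjusted p = 0.293). In both, L-RalyKO mice 1 and 3 were above every control and mouse 2 was within the range of the controls. Without L-RalyKO mouse 2, 2 genes of the list passed, both higher: Hsph1 (0.55, adjusted p = 0.0258, 0.0258 to 0.589 over all alternatives) and Dnaja1 (0.31, adjusted p = 0.0451, 0.0451 to 0.297), against 3.77% of all tested genes.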
